A study of Schizosaccharomyces pombe with 6 samples.

Results

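The rows described here are the features of the fission yeast mitochondrial genome in a count table of Ago1-associated small RNA. They were taken as every row whose ID starts with SPMIT, the prefix of mitochondrial features, which gave 36 of 6878 rows. Of these, 25 are tRNA rows whose IDs name the amino acid, such as SPMITTRNAGLN.01 for glutamine, and 11 carry only a number, SPMIT.01 to SPMIT.11. No ID among the 36 names a ribosomal RNA, and the files do not state the type of the numbered rows, so no row could be assigned to ribosomal RNA and none was analysed as such here. The RefSeq annotation of the later build ASM294v3 lists 39 mitochondrial genes, all 39 on the same strand: 25 tRNA genes, 11 protein-coding genes, 2 ribosomal RNA genes and 1 RNase P RNA gene. The number of tRNA genes per amino acid was the same in both sources for 20 of 20 amino acids. The numbered IDs were not paired with gene names in the sources used here, so they are called by their numbers.

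The study compared Ago1-associated small RNA from Schizosaccharomyces pombe cells growing in the minimal medium EMM (0h, labelled control) with cells kept for 24 h in EMM without nitrogen (24h), both at 32 °C. All 6 libraries, 3 per time point, came from the wild-type strain 975 h+. A supplement is listed at the same concentration for all 6. Beads that bind the FLAG peptide were used for the pull-down, and RNA of 20 to 30 nucleotides was taken from a gel. The labels name no tagged Ago1 allele, no pull-down without a tag, and no separate cultures, so p-values measure the spread between these samples, which may be technical.

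Mitochondrial DNA encodes a small set of membrane subunits of the respiratory chain and ATP synthase, together with the tRNAs and ribosomal RNAs needed to translate them inside the organelle. The remaining subunits are nuclear genes whose proteins are imported. In fission yeast the mitochondrial genome is transcribed into long precursors from which tRNAs are cut, and excision of the tRNAs also frees many of the messenger and ribosomal RNAs between them. Ago1, the Argonaute protein of fission yeast, binds small RNAs that Dicer makes from nuclear transcripts, above all those of the centromere repeats, and it acts in the nucleus and cytoplasm. Cells deprived of nitrogen stop dividing and, without a mating partner, enter quiescence, a state in which mitochondrial respiration is needed for survival.

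The 0h libraries held 48040 to 145861 reads assigned to features and the 24h libraries 54393 to 758789. Low mapping quality had removed 90.3 to 96.4% of the aligned reads of a library from counting. Assigned reads made up 8.72 to 16.9% of uniquely placed reads at 0h and 46.4 to 55.4% at 24h, so the scale chosen for a comparison matters. The starvation labels were checked with ste11, mei2, isp4 and isp7, genes induced when nitrogen is removed, and the 24h values of each of the 4 lay wholly above its 0h values (edgeR adjusted p from 0.000494 to 0.00314). For ste11, a transcription factor of sexual differentiation, the values were 30.1, 31.7 and 68.2 counts per 1000000 assigned reads, after TMM scaling (CPM) at 0h against 881, 1015 and 754 at 24h.

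Mitochondrial reads as a whole were present in every library and varied more between libraries of 1 time point than between time points. The 36 rows together held 611, 3432 and 10133 reads in 0h replicates 1, 2 and 3. They held 1255, 11150 and 55530 reads in the 24h replicates in the same order. As a share of assigned reads this was 1.27% (95% Wilson interval 1.18 to 1.38), 3.05% (2.95 to 3.15) and 6.95% (6.82 to 7.08) at 0h. At 24h it was 2.31% (2.18 to 2.44), 4.46% (4.38 to 4.54) and 7.32% (7.26 to 7.38). These intervals cover counting error only. Within each group the interval of each library lay apart from those of the other 2, and the groups overlapped.

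The mean share was 3.76% ± 2.90 (SD, n = 3) at 0h and 4.70% ± 2.51 (SD, n = 3) at 24h, a difference of 0.94 percentage points that was smaller than the spread between replicates (two-sided exact permutation p = 0.70). With 3 libraries against 3, the smallest p that this test can give is 0.10. In each group, the library with the fewest assigned reads had the lowest share and the library with the most had the highest, and the part of depth in the result was not tested. Leaving out 0h replicate 1 or 24h replicate 3 turned the difference negative, to -0.30 and -0.37 percentage points. Either omission also leaves the replicate numbers unbalanced between the groups. Between libraries of the same number, which the labels do not pair, the difference was 1.04, 1.41 and 0.37 percentage points. In bulk libraries such as these, fewer cells holding an RNA and less of it per cell cannot be told apart.

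The comparison looked different when mitochondrial reads were set against all reads that aligned. Mitochondrial reads per 1000000 aligned reads were 63.0, 153 and 417 in the 0h libraries and 767, 2405 and 1655 in the 24h libraries. The groups did not overlap, and the 24h mean of 1609 ± 820 was 7.62 times the 0h mean of 211 ± 184 (SD over 3 libraries each; exact permutation p = 0.10, the smallest possible). As a share of uniquely placed reads, the means were 0.521% ± 0.568 at 0h and 2.37% ± 1.09 at 24h, also without overlap (exact permutation p = 0.10, n = 3 each). The assigned reads as a whole were also a larger part of aligned reads at 24h, 2.26 to 5.39% against 0.495 to 0.601% at 0h. Over the 9 single-value comparisons made on mitochondrial totals, Benjamini-Hochberg adjusted p ran from 0.45 to 0.70.

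**Figure D1:**
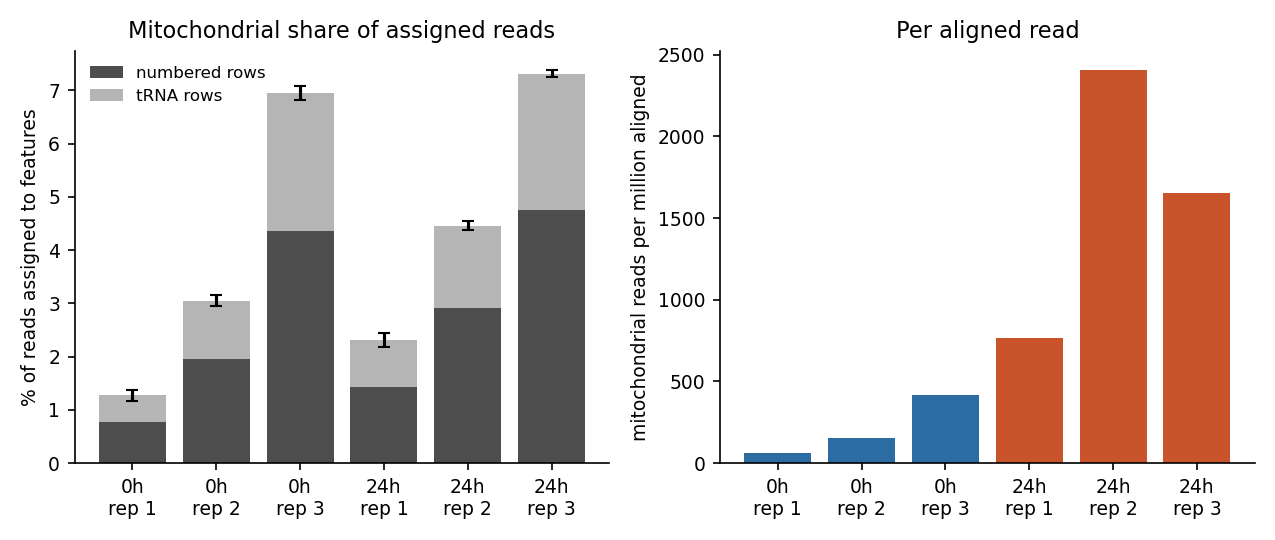
Mitochondrial reads in each of the 6 libraries. The left panel plots them as a percentage of reads assigned to features, split into numbered and tRNA rows and with 95% Wilson intervals of the total, and the right panel as reads per 1000000 aligned reads; each bar is 1 library. The shares of assigned reads overlap between 0h (1.27 to 6.95%) and 24h (2.31 to 7.32%), while the reads per 1000000 aligned reads do not (63.0 to 417 against 767 to 2405).

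The difference between libraries ran through nearly all mitochondrial rows together. Of the 30 rows with enough counts to be tested, 28 were highest in replicate 3 among the 0h libraries and 30 were highest in replicate 3 among the 24h libraries, on the scale of CPM adjusted by TMM factors, which align the bulk of features between libraries. Over all 1716 tested features, the corresponding shares were 34.7% at 0h and 34.8% at 24h. This scale is used for all CPM values here.

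The split between numbered and tRNA rows was close to constant while the total varied. Numbered rows held 61.0, 64.0 and 62.7% of mitochondrial reads at 0h and 61.8, 65.4 and 65.1% at 24h. The means were 62.6% ± 1.50 and 64.1% ± 1.99 (SD, n = 3 each), 1.53 percentage points apart and within the spread between libraries (exact permutation p = 0.30). The tRNA rows, each short compared with a protein-coding gene, held the remaining 34.6 to 39.0% per library. A few rows dominated: the 12 rows described in full held 76.4 to 85.2% of mitochondrial reads per library.

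Among the numbered rows, reads were concentrated in 5. SPMIT.01 was the largest mitochondrial row in every library, with 3734, 8447 and 20447 CPM at 0h and 4584, 7715 and 18102 CPM at 24h. Its place among all 6878 rows was 16, 12 and 8 at 0h and 15, 6 and 6 at 24h. The groups overlapped, and the fitted log2 change was -0.10 (SE 0.75; edgeR adjusted p = 0.932).

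SPMIT.11 followed with 2198, 5142 and 10270 CPM at 0h and 2598, 4313 and 10455 CPM at 24h. The 3 levels of each time point covered nearly the same range, and the fitted log2 change was -0.02 (SE 0.69; edgeR adjusted p = 0.984). SPMIT.04 held 1626, 2386 and 6162 CPM at 0h and 1762, 2475 and 5801 CPM at 24h. It showed the same overlap, with a fitted log2 change of -0.02 (SE 0.63; edgeR adjusted p = 0.984).

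SPMIT.05 stood at 1265, 3431 and 8336 CPM at 0h and at 821, 1332 and 4470 CPM at 24h. Each 24h replicate was below the 0h replicate of the same rank, but the groups overlapped and the fitted log2 change of -0.98 (SE 0.76) missed the threshold (edgeR adjusted p = 0.373). SPMIT.10 stood at 1566, 2196 and 4875 CPM at 0h and at 1269, 1785 and 2938 CPM at 24h. The groups overlapped here too, and the fitted log2 change was -0.53 (SE 0.54; edgeR adjusted p = 0.504).

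SPMIT.08 was the 1 mitochondrial row whose level changed past the test's threshold, and it was lower at 24h. It was a minor row, with 8, 24 and 40 reads at 0h and 7, 33 and 136 reads at 24h. In CPM it stood at 241, 253 and 341 at 0h and at 105, 83.1 and 164 at 24h. Every 24h library lay below every 0h library, with means of 117 ± 41.9 and 278 ± 54.5 CPM (SD, n = 3 each). As a share of mitochondrial reads its groups overlapped (exact permutation p = 0.20, n = 3 each). Those shares were 1.31, 0.699 and 0.395% at 0h and 0.558, 0.296 and 0.245% at 24h. With TMM scaling the fitted log2 change was -1.23 (SE 0.36, edgeR adjusted p = 0.0297).

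That call depended on single libraries, and the fitted change on the scaling. It held without 0h replicate 1 (edgeR adjusted p = 0.0461) and without 24h replicate 3 (0.0117), and was lost without replicate 2 (0.0710) or 3 (0.104) of 0h and without replicate 1 (0.0807) or 2 (0.0983) of 24h. With library totals in place of TMM factors the log2 change was -0.57 (edgeR adjusted p = 0.283), where the median of all features was 0.69. Per aligned read it was 2.1, where the median of all features was 3.55. On each of these scales SPMIT.08 lay below that median. A scale shifts all features of a library together, so this repeated position is not separate evidence for the call. The 0h values of SPMIT.08 spanned 241 to 341 CPM, while those of SPMIT.01 spanned 3734 to 20447. Relative to its level, SPMIT.08 had the narrowest 0h span of the tested mitochondrial rows. That of SPMITTRNAPRO.01, another minor row with 5, 8 and 18 reads at 0h, was 84.5 to 153 CPM.

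Of the other numbered rows, 1 held many reads, 1 held few and 3 held none. SPMIT.07 had 2202 reads in all, at 602, 1351 and 3614 CPM at 0h and 448, 665 and 1611 CPM at 24h, with overlapping groups. SPMIT.09 had 0, 0 and 10 reads at 0h and 0, 2 and 23 at 24h, too few to test. SPMIT.02, SPMIT.03 and SPMIT.06 had 0 reads in every library. A count of 0 allows a share of mitochondrial reads of up to 0.491% in the shallowest library, 0h replicate 1, and up to 0.0054% in the deepest, 24h replicate 3. Reads that fitted several places or several features were not counted for any row, and their part in these zeros was not tested.

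All 25 tRNA rows had reads in at least 1 library, and 23 had reads in all 6. The glutamine tRNA row, SPMITTRNAGLN.01, was the largest of them in every library, with 2349, 4540 and 5634 CPM at 0h and 2509, 5313 and 10423 CPM at 24h. Its groups overlapped, and the fitted log2 change was 0.54 (SE 0.61; edgeR adjusted p = 0.546). In mitochondria, as in the cytosol, glutamine and glutamate tRNAs are separate molecules that carry closely related amino acids.

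The glutamate tRNA row went the other way in value. SPMITTRNAGLU.01 held 482, 1404 and 4500 CPM at 0h and 329, 403 and 1476 CPM at 24h, a fitted log2 change of -1.53 (SE 0.78) that missed the threshold (edgeR adjusted p = 0.174). It passed without 24h replicate 3 (log2 change -2.59, edgeR adjusted p = 0.0371) and shrank to -0.43 without 0h replicate 3. The 2 methionine rows had the most negative fitted changes of all mitochondrial rows. Methionine is carried both by the tRNA that starts translation and by the one used inside proteins, and the IDs do not say which row is which.

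SPMITTRNAMET.01 held 271, 517 and 2702 CPM at 0h and 164, 95.7 and 789 CPM at 24h, a log2 change of -1.72 (SE 0.89; edgeR adjusted p = 0.176). With 1 library left out that change ranged from -0.22 without 0h replicate 3 to -3.33 without 24h replicate 3, where it passed (edgeR adjusted p = 0.0354). SPMITTRNAMET.02 held 211, 581 and 2582 CPM at 0h and 134, 179 and 415 CPM at 24h. Its groups overlapped because 0h replicate 1 lay among the 24h libraries, and its log2 change of -2.19 (SE 0.76) fell just short of the threshold (edgeR adjusted p = 0.0551). By DESeq2, which called 14.1% of the features it tested lower, it passed (adjusted p = 0.00663), as it did in edgeR without 0h replicate 1 (adjusted p = 0.0280) and with no filter on low counts (0.00533), while without 0h replicate 3 the log2 change shrank to -0.78 (adjusted p = 0.345).

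The largest positive fitted changes were small. The valine row, SPMITTRNAVAL.01, held 60.2, 201 and 128 CPM at 0h and 134, 154 and 357 CPM at 24h (log2 change 0.69, SE 0.48; edgeR adjusted p = 0.313). The threonine row, SPMITTRNATHR.01, held 60.2, 95.0 and 188 CPM at 0h and 105, 65.5 and 217 CPM at 24h (log2 change 0.11, SE 0.53; edgeR adjusted p = 0.901). Both rows overlapped between the time points.

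**Figure D2:**
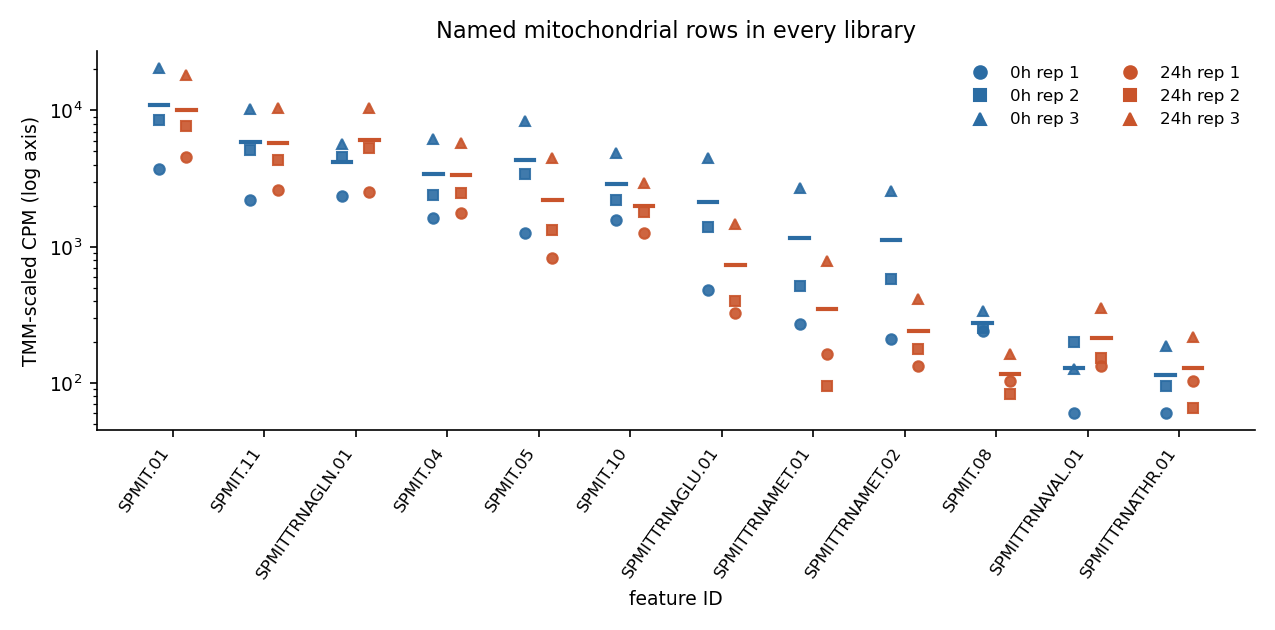
TMM-scaled CPM, on a log axis, of the 12 mitochondrial rows described in full; each point is 1 library, 3 at 0h and 3 at 24h, and lines are group means. In 11 of the 12 rows the groups overlap, and in SPMIT.08 the 24h libraries (83.1 to 164 CPM) lie below the 0h libraries (241 to 341 CPM).

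Of the other 24 rows, 21 had reads, from 35 to 2202 in all libraries together, and 18 could be tested. Their fitted log2 changes ran from -1.26 for the phenylalanine row to 0.09 for the proline row, 17 of the 18 were negative, and edgeR adjusted p ran from 0.176 to 0.908. The 3 with reads but too few to test were SPMIT.09, the second arginine row and the tryptophan row.

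In all, 30 of the 36 rows passed the filter on low counts, 7 numbered and 23 tRNA rows. Of these, 0 were higher and 1 was lower at 24h by edgeR's quasi-likelihood test at an adjusted p under 0.05. The same test called 25.9% of all 1716 features tested, 13.1% higher and 12.8% lower. At an unadjusted p under 0.05, 2 of the 30 mitochondrial rows passed, SPMIT.08 and SPMITTRNAMET.02. CPM values of the 2 time points did not overlap in 1 of the 30 rows, against 44.0% of all features tested (24.3% higher, 19.7% lower).

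The fitted values were mostly negative, although SPMIT.08 alone passed. Of the 30 rows 26 had a negative and 4 a positive fitted change, and the median was -0.57 on the log2 scale, against -0.02 over all tested features. Numbered rows (median -0.53) and tRNA rows (median -0.57) lay close together. The median turned to 0.16 without 0h replicate 3 and was -1.35 without 24h replicate 3, so its sign rested on 1 library, 0h replicate 3. Most rows were highest in replicate 3 of both groups, so either omission also unbalances the comparison. Without each of the other libraries in turn the median ran from -0.80 to -0.29.

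**Figure D3:**
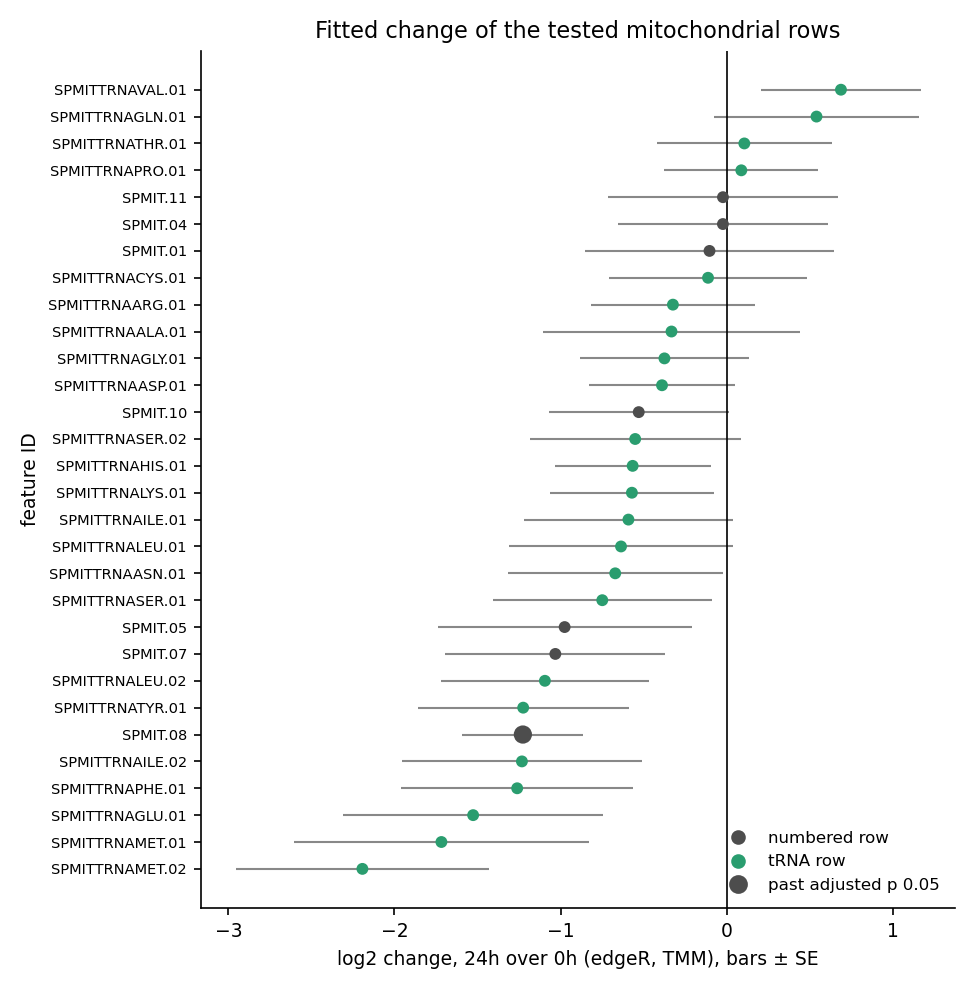
Fitted log2 change, 24h over 0h, of the 30 tested mitochondrial rows with bars of ± 1 SE (edgeR, TMM scaling, n = 3 libraries per time point); dark points are numbered rows, green points tRNA rows and the large point passed the threshold. Values run from -2.19 (SPMITTRNAMET.02) to 0.69 (SPMITTRNAVAL.01), and 1 row, SPMIT.08, passed the threshold.

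The scaling set the level of the changes, of mitochondrial rows and of all features alike. With library totals the mitochondrial median was 0.05 against 0.69 over all tested features, a shift of all features by more than 0.1. Per aligned read it was 2.63 against 3.55, and per uniquely placed read 2.00 against 2.84. The mitochondrial median was thus 0.55 lower than that of all features on the log2 scale with TMM factors, 0.64 lower with library totals, 0.93 lower per aligned read and 0.84 lower per uniquely placed read. A scale shifts all features of a library together, so the shared direction of these gaps is not separate evidence, and their size ran from 0.55 to 0.93. Without 0h replicate 3 the mitochondrial median was instead 0.10 higher than that of all features (medians 0.16 and 0.06 with TMM factors). Per aligned read 27 of the 30 rows were higher past the test, beside 93.9% of all features, and per uniquely placed read 23 were, beside 90.4%. With library totals 1 row was higher, SPMITTRNAVAL.01 (log2 change 1.31, edgeR adjusted p = 0.0339), and 0 were lower, beside 33.1% higher and 5.54% lower of all features.

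The makeup of the mitochondrial reads does not depend on scaling between libraries. As a share of mitochondrial reads, SPMIT.01 took 20.3, 23.3 and 23.7% in the 0h libraries and 24.5, 27.5 and 27.0% in the 24h libraries, without overlap. SPMITTRNAGLN.01 took 12.8, 12.5 and 6.52% at 0h and 13.4, 18.9 and 15.6% at 24h, also without overlap. SPMIT.11 overlapped, at 11.9, 14.2 and 11.9% against 13.9, 15.4 and 15.6%.

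The shares of 7 rows at 24h lay wholly below those at 0h. SPMITTRNAMET.02 took 1.15, 1.60 and 2.99% at 0h and 0.717, 0.637 and 0.619% at 24h. SPMITTRNAMET.01 took 1.47, 1.43 and 3.13% at 0h and 0.876, 0.341 and 1.18% at 24h. SPMITTRNAGLU.01 took 2.62, 3.87 and 5.21% at 0h and 1.75, 1.44 and 2.20% at 24h. In all 3 tRNA rows the highest 0h share was that of replicate 3.

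Among numbered rows, SPMIT.05 took 6.87, 9.47 and 9.65% at 0h and 4.38, 4.74 and 6.68% at 24h. SPMIT.07 took 3.27, 3.73 and 4.18% at 0h and a near-constant 2.39, 2.37 and 2.41% at 24h. The mean share of SPMITTRNAASN.01, for asparagine, was 2.93% ± 0.397 (SD, n = 3) at 0h and 2.30% ± 0.0885 (SD, n = 3) at 24h. That of SPMITTRNATYR.01, for tyrosine, was 0.435% ± 0.0991 and 0.236% ± 0.0936. Both rows were separated by little. For asparagine the nearest libraries were 0h replicate 2 (2.48%) and 24h replicate 3 (2.40%). For tyrosine they were 0h replicate 2 (0.3205%, 11 reads) and 24h replicate 1 (0.3187%, 4 reads), a gap within counting error. The remaining 24 of the 33 rows with reads overlapped.

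Each of these 9 rows had an exact permutation p of 0.10, the smallest possible, and a Benjamini-Hochberg adjusted p of 0.367 over the 33 rows, so none passed. All 9 were among the 30 tested rows. Over all 1716 tested features, scaled in the same way per mitochondrial read, 16.6% did not overlap between the time points (11.1% higher, 5.48% lower). On TMM-scaled CPM that figure was 44.0%. The mitochondrial total is the sum of the mitochondrial rows themselves, and its variation between libraries enters the scaled values of all other features. The 16.6% is therefore not a like-for-like yardstick for the 9 rows, and no excess is read from it.

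**Figure D4:**
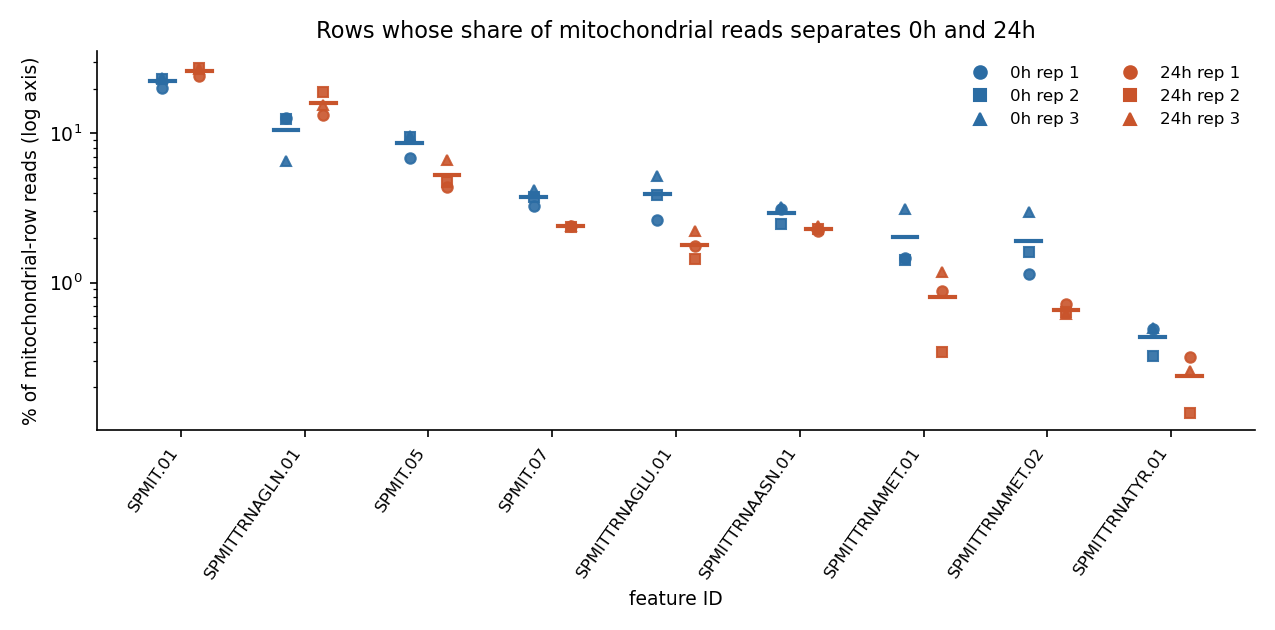
Share of mitochondrial reads, in percent on a log axis, taken by each of the 9 rows whose shares did not overlap between the time points; each point is 1 library, 3 at 0h and 3 at 24h, with the group mean as a line. SPMIT.01 (20.3 to 23.7% at 0h, 24.5 to 27.5% at 24h) and SPMITTRNAGLN.01 lie higher at 24h, and the other 7, among them SPMIT.05, SPMITTRNAGLU.01 and both methionine rows, lie lower.

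Ratios between pairs of rows describe the makeup within each library. The pairs in this paragraph were chosen after their values were seen and are a description with no test. Reads of SPMITTRNAGLN.01 per read of SPMITTRNAGLU.01 were 4.88, 3.23 and 1.25 at 0h and 7.64, 13.2 and 7.06 at 24h. Reads of SPMIT.01 per read of SPMIT.05 were 2.95, 2.46 and 2.45 at 0h and 5.58, 5.79 and 4.05 at 24h. By contrast, reads of SPMIT.01 per read of SPMIT.11 stayed between 1.64 and 1.99 at 0h and between 1.73 and 1.79 at 24h, while SPMIT.01 alone ranged from 3734 to 20447 CPM at 0h.

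For 5 amino acids the genome has 2 tRNA rows, and in 4 of these pairs both rows were tested. SPMITTRNAILE.01 had 6.5, 3.88 and 3.59 reads per read of SPMITTRNAILE.02 at 0h and 8.0, 10.4 and 4.84 at 24h (exact permutation p = 0.20, n = 3 each). SPMITTRNALEU.01 had 1.67, 5.68 and 3.81 reads per read of SPMITTRNALEU.02 at 0h and 3.15, 8.09 and 5.42 at 24h (exact p = 0.50). In the isoleucine, leucine and serine pairs the first row held more reads than the second in every library.

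The first methionine row had 1.29, 0.891 and 1.05 reads per read of the second at 0h and 1.22, 0.535 and 1.90 at 24h (exact p = 1.0). The first serine row had 10.0, 6.67 and 12.7 reads per read of the second at 0h and 4.4, 16.4 and 9.27 at 24h (exact p = 0.90). For none of the 4 pairs was a difference between time points beyond the spread of the libraries detected, with Benjamini-Hochberg adjusted p from 0.80 to 1.0. Over all libraries the first arginine row had 253 reads and the second 118.

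The row profiles of any pair of libraries were broadly alike. The percentage of mitochondrial reads that would have to move to another row to turn 1 library into another was 10.3 to 16.1 within 0h, 6.65 to 11.1 within 24h and 10.0 to 23.0 between time points. The medians were 11.4 within 0h, 10.6 within 24h and 14.8 between time points, over 3, 3 and 9 pairs. The ranges overlapped, and pairs share libraries, so the difference in medians was not tested.

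Mitochondrial and nuclear tRNA rows are read out by the same assay and can be set against each other within a library. Per 100 reads of the 171 nuclear tRNA rows, mitochondrial tRNA rows had 13.0, 19.2 and 29.4 reads at 0h and 15.7, 46.9 and 69.1 at 24h. The groups overlapped through 24h replicate 1, and the mean log2 ratio was 0.93 higher at 24h (exact permutation p = 0.30, n = 3 each). Without 24h replicate 1 the difference was 1.55 and the groups no longer overlapped (exact p = 0.10, the smallest possible). It was 0.64 without 0h replicate 1 (exact p = 0.50), 0.48 without 24h replicate 3 (exact p = 0.60) and 0.55 without the glutamine row (exact p = 0.50). Nuclear tRNA genes come in many near-identical copies, whose reads are set aside where they fit several copies, so the ratio says nothing of total tRNA.

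Numbered mitochondrial rows were also set against the 5106 nuclear protein-coding rows. Per 100 nuclear protein-coding reads there were 1.85, 4.17 and 9.59 reads of numbered rows at 0h and 1.72, 3.45 and 5.91 at 24h. The mean log2 ratio was 0.36 lower at 24h, with overlapping groups (log2 difference -0.36; exact permutation p = 0.70, n = 3 each). The difference turned to 0.23 without 0h replicate 3 and to 0.10 without 24h replicate 1.

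The nuclear partners of the mitochondrial genome gave low counts. Of 33 matched nuclear genes of oxidative phosphorylation, the subunits of the respiratory chain and ATP synthase made in the cytosol, 19 could be tested. Of these 3 rose, 0 fell and 16 did not pass (edgeR adjusted p), beside 13.1% higher and 12.8% lower over all features. The median log2 change was 0.73 for the 19, against -0.02 over all features. The count of rises was 10 with library totals, a scaling under which 33.1% of all features were higher. It was 0 without 0h replicate 3, 1 without 0h replicate 2 and 1 without 24h replicate 3. It was 2 without 24h replicate 1, and 3 without either of the other 2 libraries.

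The 3 that rose were cyt1, qcr7 and cyc1. For cyt1, cytochrome c1 of complex III, the values were 60.2, 95.0 and 51.1 CPM at 0h and 269, 186 and 198 CPM at 24h (log2 change 1.58, SE 0.38; edgeR adjusted p = 0.0137). For qcr7, a further subunit of complex III, they were 30.1, 63.3 and 42.6 CPM at 0h and 105, 136 and 142 CPM at 24h (log2 change 1.44, SE 0.41; edgeR adjusted p = 0.0252). For cyc1, cytochrome c itself, they were 211, 148 and 102 CPM at 0h and 299, 285 and 317 CPM at 24h (log2 change 1.07, SE 0.36; edgeR adjusted p = 0.0470). In all 3 genes every 24h library was above every 0h library, as in 24.3% of all features tested. The same held for qcr1, qcr6, cox5, atp7, atp16, sdh3 and nde1, which did not pass, while the remaining tested members overlapped. Without 0h replicate 3 none of cyt1, qcr7 and cyc1 passed (edgeR adjusted p 0.0861, 0.133 and 0.216 in the same order). The call of cyt1 held without each of the other 5 libraries. The call of qcr7 was also lost without 0h replicate 1 (edgeR adjusted p = 0.0647), 0h replicate 2 (0.0592) and 24h replicate 3 (0.0647). That of cyc1 held without 0h replicate 1 (edgeR adjusted p = 0.0390) and was lost without each of the other libraries (0.0629 to 0.216), with RLE scaling (0.0504) and at a minimum count of 30 (0.0721).

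The second list, drawn up for mitochondrial transcription, RNA handling, translation and assembly, matched 23 nuclear genes by symbol. Not all of them have such a role: RefSeq describes the match for cbp1 as an ARS-binding protein, and pog1 as a DNA polymerase. Only 5 had enough reads to test: rpo41, the mitochondrial RNA polymerase; tuf1, the mitochondrial elongation factor EF-Tu; and the pentatricopeptide repeat genes ppr4, ppr5 and ppr8, a family that binds organelle RNA. Of the 5, 1 rose and 0 fell, beside 13.1% higher and 12.8% lower over all features, and the median log2 change was 0.12. For tuf1 the values were 151, 158 and 196 CPM at 0h and 74.7, 85.6 and 106 CPM at 24h. Every 24h library of tuf1 lay below every 0h library, as in 19.7% of all features tested. It did not pass (log2 change -0.89, SE 0.33; edgeR adjusted p = 0.0696). The groups of rpo41 (log2 change -0.71), ppr4 (0.53) and ppr5 (0.12) overlapped. The gene that rose was ppr8, with 30.1, 84.5 and 34.1 CPM at 0h and 164, 139 and 142 CPM at 24h (log2 change 1.45, SE 0.44; edgeR adjusted p = 0.0336). Its call was lost without replicate 1 (edgeR adjusted p = 0.0790) or 3 (0.178) of 0h and without replicate 1 (0.0594) or 3 (0.0595) of 24h. The gene pog1, which joins the tested genes when some libraries are left out, was lower past the test when replicate 1 of 0h or replicate 1 or 2 of 24h was left out.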

How the data were processed

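Small RNA from Ago1 pull-downs was sequenced in 6 libraries. The deposited files held whole-number read counts, not normalized by the authors, for 6878 feature IDs. HTSeq's tally lines entered neither totals nor tests. Per the submitters' processing notes, the tools were cutadapt, Bowtie2 2.1.0 and HTSeq 0.6.1 and the build ASM294v2. Options and strand handling are not given in the sources used here. The reads had no molecular identifiers.

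Mitochondrial rows, gene lists and tests were chosen with earlier results of these data known. Lists were matched by symbol to RefSeq of ASM294v3 (6721 of 6878 IDs matched, 0 of the 36 SPMIT IDs). Because the builds differ, no coordinates or sequences are given.

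Counts of all features were fitted in R 4.3.3 by edgeR 4.0.16's robust quasi-likelihood method (group only, two-sided) after filterByExpr at a minimum count of 10 and scaling by TMM, with Benjamini-Hochberg adjustment over 1716 features and a threshold of 0.05. Standard errors were the log2 change divided by the square root of F. Shares and ratios were compared by two-sided exact permutation over libraries (scipy 1.17.1). A count of 0 was taken to allow up to 3 reads in that library. The code was tested on simulated data.

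Values are given in every library for rows averaging at least 5% of mitochondrial reads, rows past the test, and the 3 largest rises and 3 largest falls by fitted change. SPMIT.07 and the other rows with non-overlapping shares were added after their values were seen. In nuclear lists, up to 4 members past the test are named, and the tested members of the shorter list were added. Alternatives were other scalings, filters, DESeq2 1.42.0, a replicate block and leaving out each library.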

Additional observations from a re-analysis of the deposited data

How the results depend on the processing

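With TMM scaling 1 mitochondrial row was lower and 0 were higher. The count lower was 0 with library totals and with aligned reads, uniquely placed reads or mitochondrial reads as library size. It was also 0 with a minimum count of 30, where 18 mitochondrial rows were tested and SPMIT.08 was not among them. It was 2 by DESeq2 1.42.0, beside 14.1% of all features. With no filter it was 1 (SPMITTRNAMET.02 in place of SPMIT.08), beside 337 of all 6207 features fitted. It ran from 0 to 7 when 1 library was left out. The 7, of 30 mitochondrial rows tested, arose without 24h replicate 3, where 235 of all 1844 features tested were lower. The count higher was 1 with library totals, 27 per aligned read and 23 per uniquely placed read, beside 33.1, 93.9 and 90.4% of all features. Log2 changes that turned positive, given for library totals, aligned reads, uniquely placed reads, mitochondrial total and no filter in this order, were 0.53, 3.14, 2.38, 0.23 and 0.21 for SPMIT.01, then 0.62, 3.23, 2.49, 0.26 and 0.30 for SPMIT.04 and 0.61, 3.22, 2.49, 0.24 and 0.29 for SPMIT.11. For SPMIT.10 they were 0.15, 2.86 and 2.07 under the first 3. Under aligned and uniquely placed reads alone they were 2.13 and 1.44 for SPMIT.05, 2.1 and 1.47 for SPMIT.08, 1.53 and 0.83 for SPMITTRNAGLU.01, 1.11 and 0.52 for SPMITTRNAMET.01, and 1.00 and 0.20 for SPMITTRNAMET.02. The cause was not tested beyond the construction of each scale. Leaving out 1 library gave log2 changes from -0.87 to 0.67 for SPMIT.01, -0.73 to 0.67 for SPMIT.04, -0.97 to 0.0224 for SPMIT.10, -0.81 to 0.59 for SPMIT.11, -0.14 to 0.96 for SPMITTRNAGLN.01 and -0.79 to 0.64 for SPMITTRNATHR.01. It gave a difference in the share of assigned reads from -0.37 to 2.54 percentage points and a log2 ratio of numbered to nuclear coding rows from -0.95 to 0.23. Without SPMIT.01 the share of numbered rows differed by -0.46 percentage points, 24h minus 0h. In the oxidative phosphorylation list 10 of 19 members were higher with library totals (33.1% of all features), 19 per aligned read (93.9% of all features) and from 0 to 3 with 1 library left out. In the list of mitochondrial gene expression 5 of 5 were higher per aligned read, where again 93.9% of all features were, and with 1 library left out from 0 to 1 were higher and from 0 to 1 lower. Shares of single rows limit precision most in 0h replicate 1, where 611 mitochondrial reads were counted.

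Replicate numbers were not shown to pair libraries: deviations of same-numbered libraries from their group means correlated at 0.06, 0.15 and 0.18 over 1716 features, although every library correlated best with its own number, a hint from the data and not from the design. Between same-numbered libraries the log2 ratio of mitochondrial to nuclear tRNA reads differed by 0.27, 1.29 and 1.23, 24h minus 0h. That of numbered to nuclear coding rows differed by -0.11, -0.27 and -0.70. An exact sign-flip test over the 3 numbers gave p = 0.25 for each ratio and for the share of assigned reads, the smallest possible. With a replicate block 8 mitochondrial rows were lower (SPMIT.08, SPMITTRNAMET.01, SPMITTRNAMET.02, SPMITTRNAGLU.01, SPMITTRNAILE.02, SPMITTRNALEU.02, SPMITTRNAPHE.01 and SPMITTRNATYR.01), beside 15.8% of all features. Under the block the median log2 change of the mitochondrial rows was -0.55, and the log2 changes of SPMIT.04 and SPMIT.11 were 0.0246 and 0.00054.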
